A study of Mus musculus with 4 samples.

Results

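The 43 genes described here code for the proteins that copy the genome in S phase. They form a list chosen by function (origin licensing, origin firing, DNA polymerases, the sliding clamp and its partners, nucleotide supply, and chromatin copying and repair). The choice was made with earlier results of these data known, so shares set beside those of all features are descriptions. They are 43 of the 37996 features in the deposited comparison, of which 35605 had reads and a p-value. Because gene labels in that comparison did not stand beside their own values, each label was placed again, and a gene counts as measured where its label fell on 1 feature with a posterior probability of at least 0.95. That held for 38 of the 43 genes. The placing used both group means and their ratio, so it was not blind to the values described here. With a score that saw only the overall mean, 30 genes were placed. Orc6, Gins2, Pold1, Chaf1a and Uhrf1 were not placed and are treated as not measured.

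RNA was sequenced from C57BL/6 mouse cells sorted by FACS, which separates cells by fluorescence, out of fetal liver and adult bone marrow, with 2 libraries for each. The series concerns a hematopoietic stem cell niche along the liver's portal vessels before birth, and the comparison made here is fetal liver against adult bone marrow. All libraries were made with a SMARTer kit, which amplifies full-length cDNA from small amounts of RNA. No genotype, treatment, exact age or sort marker is given in the sources used here, and the labels do not say that the 2 libraries of an organ are from different animals; the p-values therefore reflect the spread of these samples alone, and that spread may be technical. Tissue and age differ together between the groups and cannot be told apart.

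Replication is set up in G1, when the origin recognition complex with Cdc6 and Cdt1 loads the MCM2-7 helicase onto DNA. In S phase, the kinases Cdc7 and cyclin E-Cdk2, with Mcm10, Cdc45 and the GINS complex, turn the loaded helicase on. Polymerase alpha-primase then starts each strand, and polymerases delta and epsilon extend it while held by the clamp PCNA. Transcription of many of these genes peaks around the entry into S phase under control of E2F factors, so their RNA is widely used as a sign of dividing cells. In sorted bulk samples a lower share of dividing cells and less RNA per dividing cell cannot be told apart.

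Values are given as normalized reads, the scale of the deposited group means, with the deeper library of each group before the shallower. Over features with means up to 10000, recovered reads came to 858720 and 223361 for bone marrow and to 2546089 and 868246 for fetal liver. The 38 measured genes had a median of 48 and 10 reads in bone marrow and of 220 and 51.5 in fetal liver, so bone marrow values rest on the fewest reads. The median absolute log2 difference of these genes within a group was 0.40 (bone marrow) and 0.47 (fetal liver), against 0.52 and 0.50 for all features averaging 10 or more normalized reads. The libraries cannot be tied to replicate numbers.

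Of the 38 measured genes, 6 were higher in fetal liver and 0 were lower at the authors' adjusted p under 0.05 in the authors' deposited table. The 6 were Pcna, Rfc2, Slbp, Mcm6, Rrm1 and Tyms, by 4.10-fold to 7.42-fold. They made up 15.8% of the measured genes. Among all tested features 4.12% were called higher and 0.129% lower, and among features averaging 10 or more normalized reads, which all 38 genes reach, 8.86% were called higher. At an unadjusted p under 0.05 in the same table, 18 genes (47.4%) were higher and 0 lower, against 18.5% of features averaging 10 or more called higher, 8.69% of all tested features called higher and 2.40% called lower.

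By the authors' deposited table, ratios of fetal liver to bone marrow were above 1 for 33 of the 38 genes, and those of Orc1, Cdc6, Mcm10, Pole and Ung were below 1. The median log2 ratio of the 38 genes, with 1 added to each group mean, was 1.37, against 0.11 for features averaging 10 or more and −0.28 for all tested features. The fetal liver libraries both exceeded the 2 of bone marrow for 27 genes (71.1%) and both fell short of them for 2, Orc1 and Mcm10, while the groups overlapped for 9. Among features in general the shares were 37.3% (above) and 26.4% (below) of features averaging 10 or more.

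A second test, limma on the reads recovered for each library, called 20 of the 38 genes higher in fetal liver (52.6%) and 0 lower at an adjusted p under 0.05, against 19.2% and 2.87% of the 16501 features fitted. These 20 hold the 6 genes named above. A further run scaled each library to its total of recovered reads in place of the authors' size factors. These totals, called library totals here, leave out 24 features with a mean over 10000 in a group. That scaling moved the median of all features by −0.69 on the log2 scale. With it limma called 7 higher and 2 lower, against 11.0% and 17.8% of features. The 7 were the same 6 and Pola1, and the 2 were Orc1 and Mcm10. Under that scaling 27 of the 38 genes stayed above 0 on the log2 scale, and Gins1, Gins3, Ccne2, Pola2, Prim2 and Chaf1b changed direction. With each library centred on its median limma called 14 higher and 1 lower (Mcm10), against 15.7% and 5.41% of features, and limma voom, which weights reads by their precision, 21 higher and 2 lower (Orc1 and Mcm10), against 22.6% and 11.1%. Without the deeper fetal liver library limma called 8 genes higher, again with the 6 among them, against 14.6% of features. The counts were 18 without the shallower fetal liver library (13.7% of features), 16 without the deeper bone marrow library (18.9%) and 20 without the shallower one (20.7%). With features averaging as little as 1 fitted as well, limma called 11 of the genes higher, against 7.39% of features, and an adjustment of the authors' p-values restricted to features averaging 10 or more called 10 genes higher, against 11.0%.

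**Figure D1:**
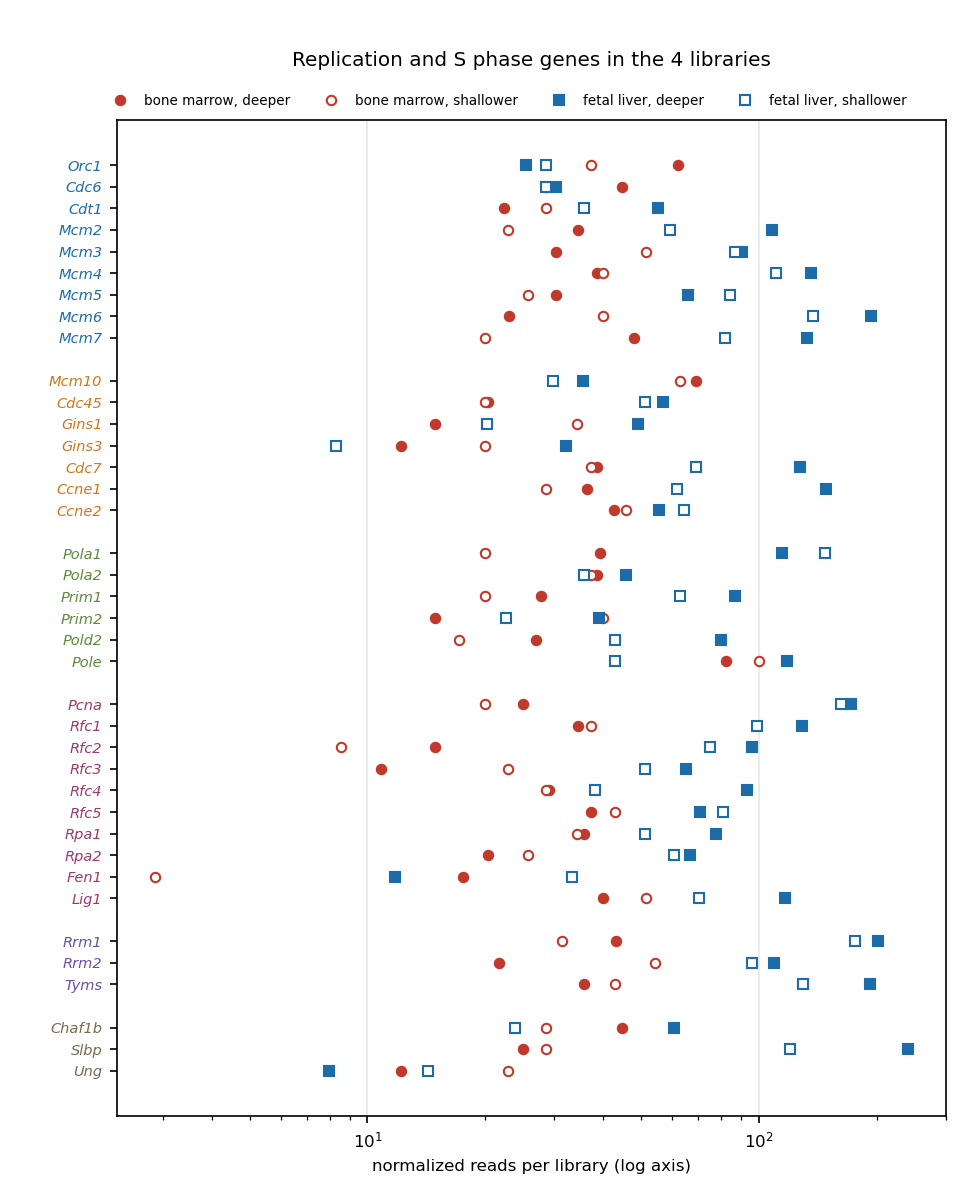
Normalized reads (log axis) of the 38 measured genes in each library, grouped by role and coloured by role on the vertical axis. Red circles are bone marrow and blue squares fetal liver, filled for the deeper library of each group; for 27 genes both squares lie to the right of both circles, and for Orc1 and Mcm10 both lie to the left.

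Promoters of several of these genes are shown because E2F control is the textbook feature they share, and it is a feature that the choice of genes did not use directly. RefSeq windows on GRCm38.p6 were at hand for 36 of the 43 genes (43 windows, each the 250 bases before an annotated start). They were searched on both strands for the E2F words TTTCCCGC, TTTGGCGC, TTTCGCGC and TTTGCCGC, whose matches can overlap. Of the 43 windows 9 (20.9%) held a word, against 1.86% of all 32851 RefSeq windows of the same length. Windows were not matched for base content, so its part in this contrast was not tested. In windows of other replication and S phase genes, a list described below, the count was 18 of 70 (25.7%). The count was 1 of 5 in windows of genes called higher and 7 of 33 (21.2%) in windows of measured genes that were not called. The windows of Mcm6 (chr1:128359706-128359955 on the minus strand), Mcm5 (chr8:75109259-75109508 on the plus strand), Pola1 (chrX:93632156-93632405 on the minus strand), Orc1 (chr4:108579204-108579453 on the plus strand) and Pcna (chr2:132253181-132253430 on the minus strand) follow, 5′ to 3′ on the gene's strand, with the E2F words in capitals.
Mcm6: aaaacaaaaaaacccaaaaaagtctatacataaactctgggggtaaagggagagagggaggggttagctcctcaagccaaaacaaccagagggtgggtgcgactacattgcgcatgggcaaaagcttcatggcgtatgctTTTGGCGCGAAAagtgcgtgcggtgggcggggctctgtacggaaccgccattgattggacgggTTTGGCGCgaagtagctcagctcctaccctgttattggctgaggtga
Mcm5: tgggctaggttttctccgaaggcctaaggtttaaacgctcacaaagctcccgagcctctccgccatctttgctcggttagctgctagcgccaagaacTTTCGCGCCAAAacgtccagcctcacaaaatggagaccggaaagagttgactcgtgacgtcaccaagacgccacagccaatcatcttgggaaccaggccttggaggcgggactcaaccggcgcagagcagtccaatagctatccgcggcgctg
Pola1: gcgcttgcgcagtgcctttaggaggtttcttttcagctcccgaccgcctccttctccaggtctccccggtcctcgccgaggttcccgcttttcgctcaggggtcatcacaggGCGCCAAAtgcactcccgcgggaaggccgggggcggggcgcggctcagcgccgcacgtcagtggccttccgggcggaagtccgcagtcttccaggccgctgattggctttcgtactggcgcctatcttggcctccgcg
Orc1: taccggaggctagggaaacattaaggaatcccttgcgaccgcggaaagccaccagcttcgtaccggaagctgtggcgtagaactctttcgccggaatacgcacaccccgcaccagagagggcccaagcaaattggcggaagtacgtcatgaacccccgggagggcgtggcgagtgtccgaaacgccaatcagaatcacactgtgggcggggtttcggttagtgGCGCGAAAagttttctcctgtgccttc
Pcna: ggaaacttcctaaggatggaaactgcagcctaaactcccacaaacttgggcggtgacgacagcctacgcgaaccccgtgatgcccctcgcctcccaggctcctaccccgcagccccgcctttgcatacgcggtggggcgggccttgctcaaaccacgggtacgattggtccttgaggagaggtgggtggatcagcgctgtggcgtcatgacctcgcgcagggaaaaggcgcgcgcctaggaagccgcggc
Mcm6, which was called higher, held 3 words, of which 2 overlap. Mcm5 held 2 overlapping words. Pola1 and Orc1 held 1 each, although their values lay on opposite sides of 1. Pcna, with the largest fold of all, had none of these words in its window. The word CCAAT stood in 25 of the 43 windows (58.1%) and in 33.8% of all windows. A match describes letters and is not a bound site, and the coordinates are not those of the authors' build, mm9.

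Of 10 origin licensing genes 9 were measured and 1 was called higher, against 8.86% of features averaging 10 or more. All 6 subunits of MCM2-7, the ring that unwinds DNA at the fork, had both fetal liver libraries above both bone marrow libraries, by 2.17-fold to 5.26-fold in the authors' deposited table. The same separation held for 37.3% of features averaging 10 or more. Mcm6 was the subunit that passed the authors' adjusted p. Its bone marrow libraries held 22.97 and 40.03 normalized reads and its fetal liver libraries 193 and 138. The gap between the groups was wider than the spread within either. The ratio was 5.26, with an adjusted p, from the authors' deposited table, of 0.000470, and limma gave a log2 fold change of 2.39 ± 0.42 (SE).

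The other subunits did not pass the authors' adjusted p. Mcm4 held 38.5 and 40.03 normalized reads in bone marrow and 136 and 111 in fetal liver, a ratio of 3.14 with an unadjusted p, from the authors' deposited table, of 0.00474. Its libraries were close within each group. For Mcm2 the values were 34.5 and 22.9 against 108 and 59.5, a ratio of 2.92 at an unadjusted p, from the authors' deposited table, of 0.0250. Mcm3 had 30.4 and 51.5 against 90.6 and 86.8, a ratio of 2.17 at an unadjusted p, from the authors' deposited table, of 0.0267. The fetal liver libraries of Mcm3 were close together while its bone marrow libraries were not. Limma gave log2 fold changes of 1.62 ± 0.39 for Mcm4, 1.48 ± 0.44 for Mcm2 and 1.14 ± 0.41 for Mcm3, with adjusted p of 0.00690, 0.0226 and 0.0561. Mcm5 held 30.4 and 25.7 against 65.9 and 84.4 and Mcm7 47.97 and 20.02 against 133 and 82.04. Both pairs of groups stood apart, but the bone marrow libraries of Mcm7 differed by over 2-fold, and its ratio of 3.16 was 5.36 without the deeper one. Per kilobase of exon, a scale on which genes can be compared, the 6 subunits spanned 4.12 to 10.9 normalized reads in bone marrow and 12.0 to 35.5 in fetal liver.

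The loaders Orc1, Cdc6 and Cdt1 were not called. Orc1, the largest subunit of the origin recognition complex, held 62.2 and 37.2 normalized reads in bone marrow and 25.4 and 28.5 in fetal liver. Both fetal liver libraries were below both bone marrow libraries. The ratio of 0.543 had an unadjusted p, from the authors' deposited table, of 0.0935 and limma's adjusted p was 0.195, so the difference did not pass either test, while limma on library totals and limma voom called it lower. Cdc6, the loader that joins the origin complex, had 44.6 and 28.6 against 30.3 and 28.5, with groups that overlapped, and a ratio of 0.804 in the authors' deposited table that was 1.03 without the deeper bone marrow library. Cdt1, which brings the ring to the loader, had 22.3 and 28.6 against 55.3 and 35.7 and a ratio of 1.79 at an unadjusted p, from the authors' deposited table, of 0.157.

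Among the origin firing genes 0 of 7 measured were called in either direction, 2 reached an unadjusted p under 0.05, and limma called 3 higher. The shares of features averaging 10 or more that were higher by these rules were 8.86%, 18.5% and 19.2%. Cdc7, the catalytic subunit of the kinase that phosphorylates the loaded ring, held 38.5 and 37.2 normalized reads in bone marrow and 128 and 68.96 in fetal liver. The ratio was 2.60 (unadjusted p = 0.0177, authors' deposited table) and limma's log2 fold change 1.29 ± 0.42 (SE). Ccne1, cyclin E1, held 36.5 and 28.6 against 148 and 61.8, with a ratio of 3.23 at an unadjusted p, from the authors' deposited table, of 0.0379 and a limma log2 fold change of 1.54 ± 0.45 (SE). Its fetal liver libraries were far apart, and the ratio was 1.90 without the deeper one. Its relative Ccne2, cyclin E2, held 42.6 and 45.7 against 55.7 and 64.2, groups that did not overlap but were close, with a ratio of 1.36 in the authors' deposited table.

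The helicase's partners were uneven. Cdc45, part of the active helicase, held 20.3 and 20.02 normalized reads in bone marrow and 56.8 and 51.1 in fetal liver. Its libraries were close within each group, and limma gave a log2 fold change of 1.38 ± 0.43 (SE) with an adjusted p of 0.0300, while the unadjusted p was 0.0556 in the authors' deposited table. Gins1 and Gins3, subunits of the GINS complex that binds Cdc45, overlapped between groups. They held 14.9 and 34.3 against 49.3 and 20.2 and 12.2 and 20.02 against 32.2 and 8.32, and with 1 library left out their ratios ran from 0.822 to 2.34 and from 0.517 to 2.002, the lowest without the deeper fetal liver library. Mcm10, which helps to activate the helicase, was the other gene with both fetal liver libraries below both bone marrow libraries, at 68.9 and 62.9 in bone marrow and 35.6 and 29.7 in fetal liver. Its ratio of 0.496 had an unadjusted p, from the authors' deposited table, of 0.127 and limma's adjusted p was 0.0870. It did not pass either test, and limma with library totals, with each library centred on its median, and with voom called it lower.

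Of the 6 polymerase and primase genes measured, 0 were called, 2 reached an unadjusted p under 0.05, both from polymerase alpha-primase, and limma called 3 higher. By the same rules 8.86%, 18.5% and 19.2% of features averaging 10 or more were higher in fetal liver. Pola1, the catalytic subunit of polymerase alpha, held 39.2 and 20.02 normalized reads in bone marrow and 115 and 147 in fetal liver. The groups were well apart, the ratio was 4.43, and the adjusted p in the authors' deposited table was 0.0693, above the threshold. Limma gave 2.17 ± 0.43 (log2, SE) with an adjusted p of 0.00163. Prim1, the catalytic primase subunit, held 27.7 and 20.02 against 86.8 and 63.02, a ratio of 3.14 at an unadjusted p, from the authors' deposited table, of 0.0227 and a limma log2 fold change of 1.61 ± 0.42 (SE). The accessory subunits of the same complex were not called. Pola2 held 38.5 and 37.2 against 45.9 and 35.7 and Prim2 14.9 and 40.03 against 39.03 and 22.6, with groups that overlapped and ratios of 1.08 and 1.12 in the authors' deposited table. With 1 library left out the ratio of Pola2 ran from 0.943 to 1.21 and that of Prim2 from 0.770 to 2.07. The difference between catalytic and accessory subunits was not tested.

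The replicative polymerases were represented by 2 genes. Pold2, an accessory subunit of polymerase delta, held 27.02 and 17.2 normalized reads in bone marrow and 79.95 and 42.8 in fetal liver. Both fetal liver libraries lay above, by 2.78-fold in the authors' deposited table at an unadjusted p of 0.0529, and limma's adjusted p was 0.0392. Pole, the catalytic subunit of polymerase epsilon, held 82.4 and 100.1 against 118 and 42.8. Its fetal liver libraries lay on either side of the bone marrow values, and the ratio of 0.880 in the authors' deposited table turned on them: it was 0.469 with the deeper left out and 1.29 with the shallower left out.

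**Figure D2:**
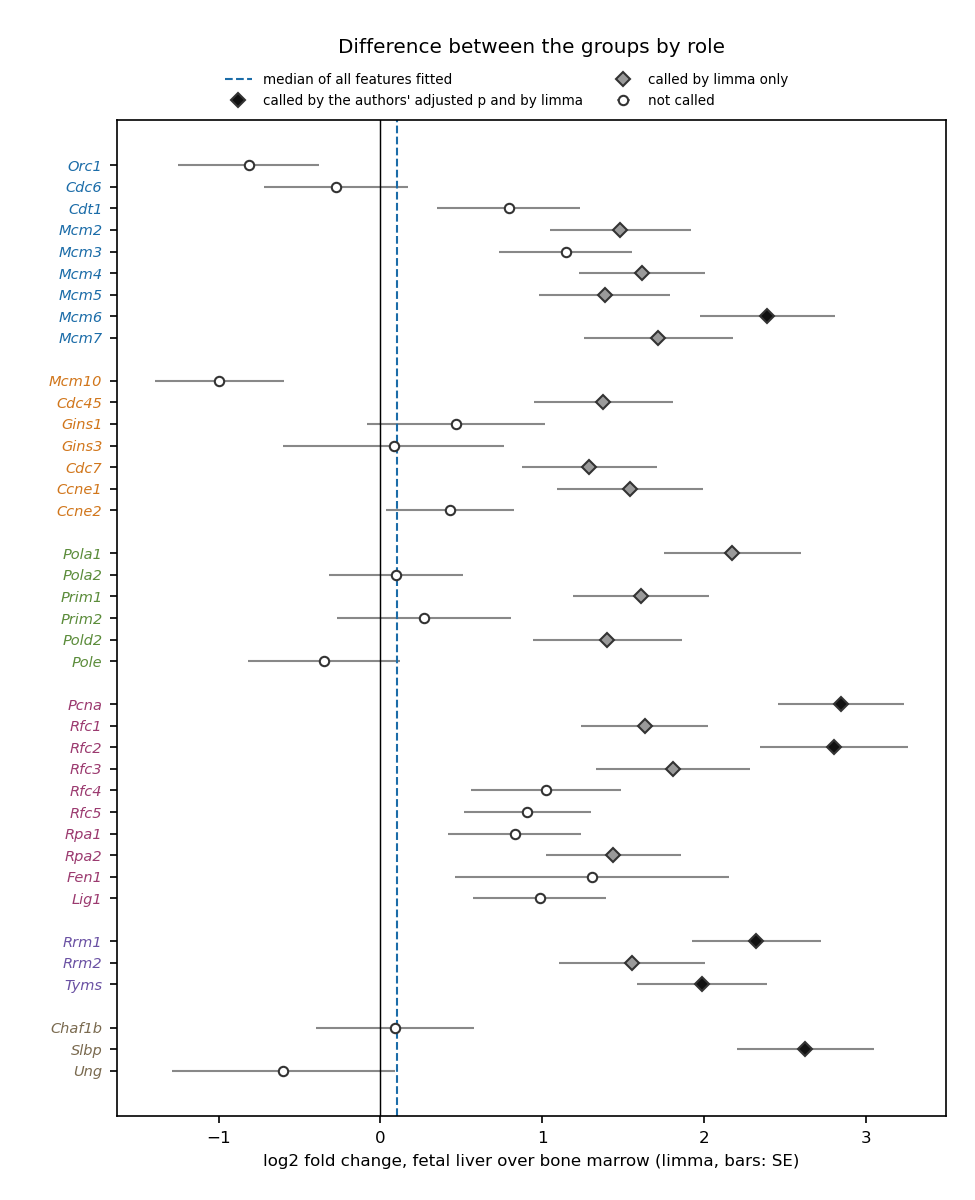
Log2 fold change of fetal liver over bone marrow from limma for each measured gene, with bars for the SE (2 libraries per group), grouped by role. Black diamonds mark the 6 genes called by both tests, grey diamonds those called by limma only, open circles those not called; the dashed line is the median of all features fitted, 0.11.

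Each of the 10 genes of the sliding clamp and its partners was measured and had a ratio above 1 in the authors' deposited table, and 2 were called higher. Of features averaging 10 or more, 53.6% had a ratio above 1 and 8.86% were called higher. Pcna, the ring that holds polymerases on DNA, held 25.00 and 20.02 normalized reads in bone marrow and 172 and 162 in fetal liver. Each group was tight, and the lowest fetal liver value was several times the highest bone marrow value. Its ratio of 7.42 was the largest of the 38 genes, with an adjusted p, from the authors' deposited table, of 0.000396, and limma's log2 fold change was 2.85 ± 0.39 (SE). Pcna has processed pseudogenes in the mouse genome, and how the authors' counting treated reads shared with them is not given in the sources used here. Per kilobase of exon Pcna also had the highest fetal liver level of the 38, 9.38 in bone marrow and 69.6 in fetal liver. Rfc2, a small subunit of the clamp loader, held 14.9 and 8.58 normalized reads in bone marrow and 96.2 and 74.9 in fetal liver. The ratio was 7.30 with an adjusted p, from the authors' deposited table, of 0.00846, and limma gave 2.80 ± 0.46 (log2, SE). Its bone marrow level rests on 22 and 3 reads, and with 10 added to each mean its ratio came to 4.40.

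All 5 subunits of the clamp loader RFC had both fetal liver libraries above both bone marrow libraries, by 1.90-fold to 7.30-fold in the authors' deposited table. That separation was found for 37.3% of features averaging 10 or more. Rfc1, the large subunit, held 34.5 and 37.2 against 129 and 98.7 normalized reads, a ratio of 3.18 at an unadjusted p, from the authors' deposited table, of 0.00433. Rfc3 held 10.8 and 22.9 against 65.2 and 51.1, a ratio of 3.45 at an unadjusted p, from the authors' deposited table, of 0.00387 that came to 5.38 without the shallower bone marrow library. Limma's log2 fold changes were 1.63 ± 0.39 for Rfc1 and 1.81 ± 0.48 for Rfc3 (SE). Rfc4 and Rfc5 had smaller ratios, 2.28 and 1.90 in the authors' deposited table. Their libraries held 29.1 and 28.6 against 93.2 and 38.05 and 37.2 and 42.9 against 70.9 and 80.9, and neither passed limma. Without the deeper fetal liver library the ratio of Rfc4 was 1.32.

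Of the 4 genes for single-strand binding and strand joining 0 were called. Rpa2, the middle subunit of the single-strand binding protein RPA, held 20.3 and 25.7 normalized reads in bone marrow and 66.7 and 60.6 in fetal liver. Its ratio was 2.77 at an unadjusted p, from the authors' deposited table, of 0.0248 and its limma log2 fold change 1.44 ± 0.42 (SE). Rpa1, the large subunit, held 35.8 and 34.3 against 77.7 and 51.1, groups apart by 1.84-fold in the authors' deposited table with an unadjusted p of 0.160. Lig1, the ligase that seals Okazaki fragments, held 39.9 and 51.5 against 117 and 70.2, with a ratio of 2.05 at an unadjusted p, from the authors' deposited table, of 0.0392 and a limma log2 fold change of 0.98 ± 0.41 (SE) at an adjusted p of 0.1002. Fen1, the flap nuclease that trims those fragments, was the one gene of this role whose groups overlapped, at 17.6 and 2.86 and 11.7 and 33.3. It rested on 1 read in the shallower bone marrow library, and its ratio of 2.21 in the authors' deposited table ran from 1.15 to 7.88 with 1 library left out.

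Nucleotide supply had the highest median log2 ratio of the 6 roles, 2.01 over 3 genes. Of the 3, 2 were called higher, against 8.86% of features averaging 10 or more. Rrm1, the large subunit of ribonucleotide reductase, which makes deoxynucleotides, held 43.2 and 31.5 normalized reads in bone marrow and 202 and 176 in fetal liver. Its ratio was 5.06 with an adjusted p, from the authors' deposited table, of 0.00508, and limma gave 2.32 ± 0.40 (log2, SE). Tyms, thymidylate synthase, held 35.8 and 42.9 against 193 and 129.6. The groups were well apart, with a ratio of 4.10, an adjusted p, from the authors' deposited table, of 0.00730, and a limma log2 fold change of 1.99 ± 0.40 (SE). Rrm2, the small subunit that pairs with Rrm1 in S phase, held 21.6 and 54.3 against 109.5 and 96.3. Its bone marrow libraries differed most of these 3, and the ratio of 2.71 (unadjusted p = 0.00899, authors' deposited table) was 4.76 without the shallower one. Limma's log2 fold change for Rrm2 was 1.55 ± 0.45 (SE).

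Of 3 measured chromatin and repair genes 1 was called higher, against 8.86% of features averaging 10 or more. Slbp, the protein that binds the stem-loop of replication-dependent histone mRNAs, held 25.00 and 28.6 normalized reads in bone marrow and 241 and 120.1 in fetal liver. The bone marrow libraries were close together and both fetal liver libraries were far above, although they differed from each other. Its ratio was 6.73 with an adjusted p, from the authors' deposited table, of 0.00196, it was 4.48 without the deeper fetal liver library, and limma gave 2.62 ± 0.43 (log2, SE). Chaf1b, a subunit of the chromatin assembly factor that places new histones behind the fork, held 44.6 and 28.6 against 60.6 and 23.8, with fetal liver values on either side of bone marrow. Ung, the glycosylase that removes uracil from DNA, was the lowest of the 38 genes in fetal liver at 12.2 and 22.9 against 7.96 and 14.3, with groups that overlapped. Ratios were 1.15 for Chaf1b and 0.634 for Ung in the authors' deposited table. That of Chaf1b was 0.650 without the deeper fetal liver library and 0.947 without the shallower bone marrow library.

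**Figure D3:**
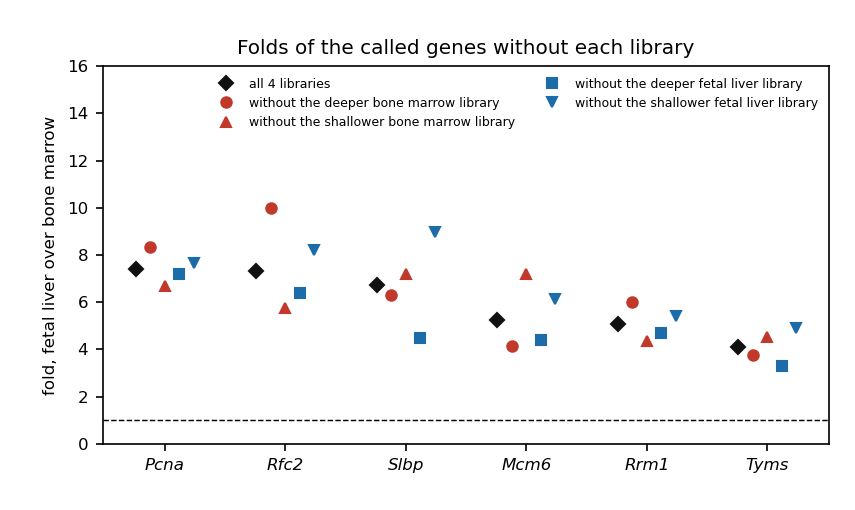
Ratio of fetal liver to bone marrow means for the 6 called genes, with all 4 libraries (black diamonds) and with each library left out (coloured symbols; red for bone marrow, blue for fetal liver). The ratios with 1 library left out run from 3.29 to 9.98, all above the dashed line at 1.

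With each library left out in turn, ratios of the 6 called genes stayed between 3.29 and 9.98, and limma called all 6 higher in each of the 4 runs. Among all 38 genes, 28 stayed above 1 and 3 below 1 in each such run, and 14 moved by over 1.5 times or crossed 1 in at least 1 of them.

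Fold and level moved together in these libraries. Among features with a mean of about 11.3 normalized reads the median limma log2 fold change was −0.63, and among those near 90.5, the level of Pcna, it was 1.42. Set against features of their own level, 30 of the 38 genes were above the median, 13 were above the upper quartile, 3 were below the lower quartile, and Rfc2 alone was above the 95th percentile. The median gene stood 0.57 above its level's median on the log2 scale. Levels here average both groups, so a gene that is high in fetal liver is compared with features that are often high there too. What ties fold to level was not tested.

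**Figure D4:**
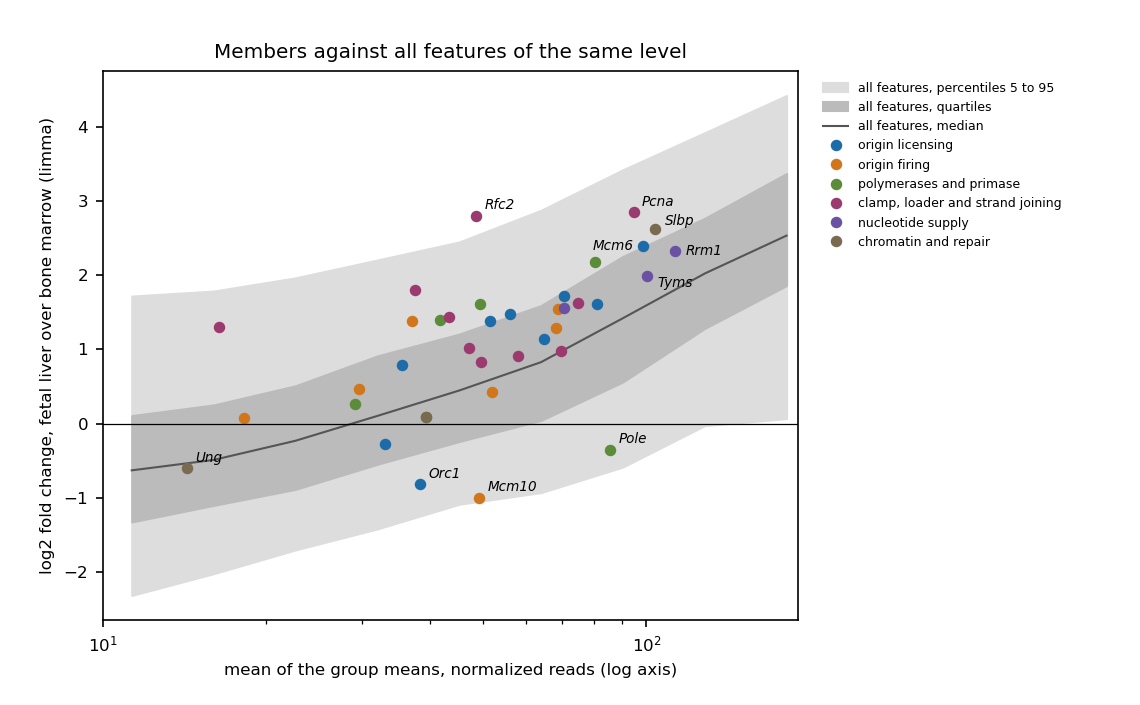
Limma log2 fold change of fetal liver over bone marrow against the mean of the group means (normalized reads, log axis), with each measured gene as a point coloured by role. The grey bands give the percentiles 5 to 95 and the quartiles of all features at that level and the line their median, which climbs with level; 30 of the 38 genes lie above the median of their level.

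Per kilobase of exon, the median of the 38 genes came to 7.35 normalized reads for bone marrow and to 17.1 for fetal liver. For 15968 placed protein-coding genes the medians were 5.77 and 5.45. In bone marrow 27 of the 38 genes were above the coding median, and in fetal liver 34 were. Bone marrow levels were compressed: the upper quartile of coding genes was 2.10 times the lower there, against 3.83 times in fetal liver. Olfactory receptor genes, which neither tissue is known to use, had medians of 1.55 and 0.80 over 383 genes, so the bone marrow median of the replication genes stood less far above that floor than the fetal liver median. Exon length entered the score used to place labels, so these levels are not fully independent of it. The part of this floor in the ratios was not tested.

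**Figure D5:**
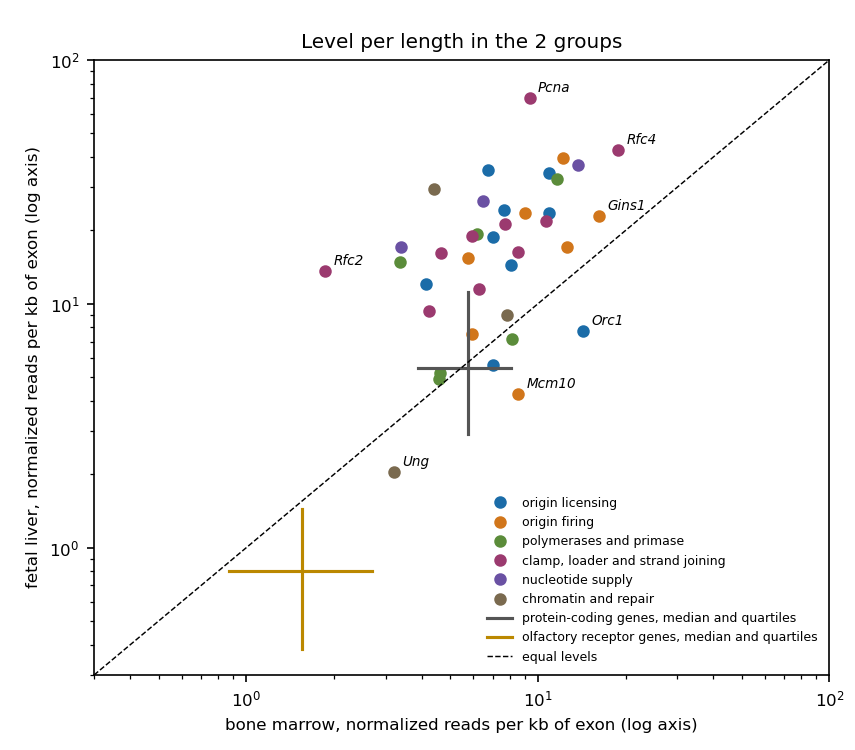
Group means per kilobase of exon (normalized reads, log axes) in bone marrow and fetal liver for each measured gene, coloured by role, with the dashed line for equal levels. Crosses mark the median and quartiles of 15968 protein-coding and 383 olfactory receptor genes; 33 of the 38 genes lie above the line, and Pcna is highest.

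A wider list of 73 other replication and S phase genes, of which 68 were measured, had 6 called higher and 0 called lower. The 6 are 8.82% of the 68, close to the 8.86% of features averaging 10 or more that were called higher. Tipin, a partner of Timeless in fork protection, held 12.8 and 22.9 normalized reads against 205 and 128, a ratio of 9.35 with an adjusted p, from the authors' deposited table, of 1.54e-05. Tfdp1, the DNA-binding partner of E2F factors, held 14.9 and 11.4 against 127 and 114, a ratio of 9.15 with an adjusted p, from the authors' deposited table, of 0.000412. For both genes the groups did not overlap, and the fetal liver libraries of Tipin differed more than those of Tfdp1. Rpa3, the small RPA subunit, held 3.38 and 8.58 against 60.6 and 40.4, a ratio of 8.45 in the authors' deposited table. Its bone marrow value rests on 5 and 3 reads, and the ratio was 14.96 without the shallower bone marrow library and 3.79 with 10 added to each mean. Asf1a, a histone chaperone, held 17.6 and 11.4 against 78.1 and 84.4, a ratio of 5.60 in the authors' deposited table. Mcmbp, which binds MCM subunits, and Nasp, a chaperone for histone H1 and H3-H4, had ratios of 4.60 and 2.85 in the authors' deposited table, and that of Nasp was 4.34 without the shallower bone marrow library. The median log2 ratio of the 68 genes was 0.81. At an unadjusted p under 0.05 in the authors' deposited table, a higher level was found for 22 genes (32.4%, against 18.5% of features averaging 10 or more) and a lower one for 1, Chtf18. Limma called 24 of the 68 higher (35.3%) and 1, Chtf18, lower, against 19.2% and 2.87% of features.

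Of 20 genes of G2 and mitosis, a list that shares Ccna2 with the wider list above, 17 were measured. Their median log2 ratio was 1.55. In this list 5 were called higher and 0 lower, against 8.86% of features averaging 10 or more called higher. All 17 had both fetal liver libraries above both bone marrow libraries, against 37.3% of those features. Markers of cell types were read as well, and their lists went different ways. Of 5 hepatoblast markers 4 were measured and 3 (Alb, Afp and Apoa2) were called higher, and their summed level was 45.3 and 25.7 normalized reads in bone marrow against 579 and 633. Of 8 pericyte and mural markers, all measured, 4 were called higher, with sums of 1055 and 712 against 1758 and 3053. In that list Cspg4 (a bone marrow mean of 645 against 412) and Des (27.9 against 13.5) had both fetal liver libraries below both of bone marrow and were not called. Cspg4 made up most of the bone marrow sums, and Acta2 held 1578 normalized reads in the shallower fetal liver library alone. Of 8 neutrophil and myeloid markers 7 were measured and 1 was called lower, with sums of 396 and 106 against 37.9 and 46.4. Of 8 erythroid markers 4 were measured and 0 were called, with sums of 93.9 and 97.2 against 94.7 and 59.5. These 4 went opposite ways. A log2 ratio of 2.69, with both fetal liver libraries above, belonged to 1, while 3 had ratios below 1, 2 of them with both fetal liver libraries below. Of 6 marrow stromal markers 5 were measured and 2 were called higher. Lymphoid (4 of 6 measured), endothelial (6 of 6) and haematopoietic (2 of 4) markers had 0 called, with median log2 ratios of −1.01, 0.05 and −0.09. None of the measured markers in these lists was at 0 in a group. The 38 replication genes summed to 1244 and 1261 in bone marrow and 3540 and 2593 in fetal liver. The part of these other cells in the replication genes' values was not tested.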

How the data were processed

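RNA was sequenced from sorted mouse cells in 4 libraries, 2 per group, and groups were taken from the sample titles. Per the submitters' processing notes, which give no version or role, GSNAP, HTSeq, DESeq and mm9 were used; the gene annotation is not given in the sources used here. Per the file headers, the table deposited holds group means as a signal of normalized reads. The fold in it is a ratio of the deposited means, fetal liver over bone marrow, and its p-value and adjusted p-value are those of the authors' comparison, per the file headers.

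Of 37996 features 33465 carry a label, packed at the top, and 4531 at the end carry none. Labels were placed again with a hidden Markov model that kept their order. It assumed that features with tied p-values follow identifier order (error rate 0.001). It used a LightGBM 4.6.0 score, bounded at 4 and fitted in 5 folds. The score set gene structure (GENCODE M21), symbol prefix and identifier number against both group means, their log2 ratio and the recovered reads per library. Placement was therefore not blind to the ratios read from it. A posterior of at least 0.95 was reached by 20655 of 32237 labels (64.1%). The members had moved by 6 to 2561 features. Values credited to the authors' deposited table are read at the feature a label was placed on.

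Each group mean up to 10000 was split into whole reads of 2 libraries, with 1 solution for all 37976 bone marrow means and for 37971 of 37973 fetal liver means. A deliberately wrong read worth gave a solution for 0% and 0.0568% of them. 1 read was worth 0.676 and 2.86 normalized reads in bone marrow and 0.379 and 1.19 in fetal liver. Limma 3.58.1 (R 4.3.3), with a mean-variance trend, was run on the log2 of normalized reads with 1 added, for the 16501 features averaging 10 or more, and p-values were adjusted by Benjamini-Hochberg. Log2 fold changes on that scale understate those of low genes. Reads cover counting error only. The placement and the limma step were run on simulated data. The simulated labels came from the model's own placements and tie order, so that run cannot test these assumptions.

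Every member with a placed label is named, with full statistics for the called ones and those at an unadjusted p under 0.05, and of the other replication genes the called ones. The members and lists were chosen with earlier results of these data known.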

Additional observations from a re-analysis of the deposited data

How the results depend on the processing

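No paired analysis was possible because the groups share only 1 replicate number and the recovered libraries cannot be tied to replicate numbers. The 6 calls rest on placed labels. With labels left where the deposited file has them 7 genes were called higher, and with each label put at its likeliest feature 7. At a posterior of at least 0.99 the count was 6, and with a score that saw only the overall mean 6 by posterior mass. Features stand in p-value order and each setting kept the label order. These counts therefore had little room to move and do not test the placing. Ratios did change with placing: with labels left in place that of Pcna was 4.93 against 7.42, and that of Tyms 12.1 against 4.10. The score that saw only the overall mean placed 30 genes, against 38 with the main score. Both scores placed 29 genes on the same feature. Between the scores a called gene moved by up to 4 features. Adjusting the authors' p-values over features averaging 10 or more gave 10 genes called higher, with 11.0% of those features called higher. The median log2 ratio of 1.37 came to 0.90 with labels left in place and 1.12 with 10 added to each mean. It was 0.67 with library totals, 1.13 with each library centred on its median (chosen after seeing the data), and 1.01 to 1.47 with 1 library left out. Both scalings moved all features too. The median limma log2 fold change of the genes was 1.34, against 0.11 for all features fitted. With library totals these medians were 0.67 and −0.58, and with centring 1.10 and −0.13. Limma called 11 genes higher (7.39% of features) with a filter at a mean of at least 1, 7 with library totals and 8 to 20 with 1 library left out, the 8 without the deeper fetal liver library; the shares of features ran from 13.7% to 20.7%. Limma called 2 lower with library totals (Orc1 and Mcm10), 1 with centring (Mcm10) and 2 with voom, which was chosen after seeing the data (Orc1 and Mcm10). Without voom's weights, with the authors' size factors, it called 0 lower. Why the settings differ was not tested. The genes had a median of 10 reads in the shallower bone marrow library, so single bone marrow values rest on few reads.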

Other observations

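E2f1, a transcription factor that drives many S phase genes, was chosen after its values were seen: the authors' deposited table gave it a mean of 36.7 normalized reads in bone marrow against 13.4, a ratio of 0.365 at an unadjusted p of 0.160, while its partner Tfdp1 had a ratio of 9.15. Other E2f genes of the wider list went both ways. In the authors' deposited table E2f6, E2f4 and E2f3 had ratios of 2.73, 1.93 and 1.28, and E2f8 and E2f7 of 0.862 and 0.801. Limma called E2f6 higher (adjusted p = 0.0338), and E2f2 and E2f5 were not placed. The E2f1 libraries held 27.7 and 45.7 normalized reads in bone marrow and 12.5 and 14.3 in fetal liver, both below. E2f1 did not pass the authors' adjusted p or limma with the authors' size factors (adjusted p = 0.0729), while limma called it lower with library totals (adjusted p = 0.00972), with centring (0.0388) and with voom (0.0361). With 1 library left out its adjusted p ran from 0.0887 to 0.443.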
